A study of Mus musculus with 16 samples.

Results

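The 6 genes described here encode enzymes that modify or cut the hormone FGF23 on its way out of the cell: Galnt3, Fam20c, Furin, Pcsk5, Pcsk6 and Pcsk7. They were chosen by name from the 32285 genes of the count matrices. No rule on measured values was used, but earlier results of these data were known. The cells were bone marrow stromal cell cultures from 12-week-old male mice, grown for 21 days with 10 mM β-glycerophosphate, a phosphate donor that lets osteoblast cultures mineralise, and then profiled by droplet single-cell RNA sequencing of transcript 3′ ends. Every animal carried floxed Fgf23 alleles. WT cultures were Dmp1+/+ Fgf23 fl/fl without Cre. Fgf23cKO cultures were Dmp1+/+ Fgf23 fl/fl with Dmp1-cre, in which the Dmp1 promoter drives the recombinase in mature osteoblasts and osteocytes, so that other cells of the culture keep Fgf23. Dmp1KO cultures were Dmp1-/- Fgf23 fl/fl without Cre, and Dmp1KO/Fgf23cKO cultures were Dmp1-/- Fgf23 fl/fl with Dmp1-cre. Of 3 tagged cultures per genotype, counts were analysed for 3 WT, 3 Fgf23cKO, 2 Dmp1KO (numbers 2 and 3) and 3 Dmp1KO/Fgf23cKO cultures, 11 in all. The counts of Dmp1KO culture 1 were not analysed here. Cells without a tag (3216 of 17793) helped to define the clusters. Otherwise they entered only an alternative fit and, where said, pooled cluster levels and the count of cells with an Fgf23 UMI.

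FGF23 is made mainly by osteoblasts and osteocytes and makes the kidney excrete phosphate. The intact hormone is active, and cutting it after an Arg-X-X-Arg motif ends that activity. The proprotein convertases cut such basic motifs: furin (Furin) in the trans-Golgi network of nearly all cells, PC5 (Pcsk5), PACE4 (Pcsk6) and PC7 (Pcsk7) with narrower or partly overlapping roles. GALNT3 adds the first sugar of an O-glycan to the threonine inside the motif, which shields the hormone from cutting. FAM20C, a kinase of the secretory pathway, phosphorylates the serine just after the motif, which hinders that glycosylation, and also phosphorylates the acidic matrix proteins of bone and tooth. The site on which these enzymes act is given from the reference genome, with the 4 codons of the Arg-His-Thr-Arg motif, residues 176 to 179 of the 251-residue precursor, in capitals. The glycosylated threonine is residue 178 and the phosphorylated serine is residue 180.
Fgf23 site, chr6:127080239-127080268 (GRCm38, plus strand): cgcccacggCGCCACACGCGCagcgccgag

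In the GENCODE annotation of GRCm38, Galnt3 (ENSMUSG00000026994) lies at chr2:66082766-66124994 on the minus strand and Fam20c (ENSMUSG00000025854) at chr5:138754514-138810077 on the plus strand. Fam20c shares its chromosome with Dmp1 and starts 34.5 Mb away from it. Furin (ENSMUSG00000030530) lies at chr7:80388585-80405436 on the minus strand, Pcsk5 (ENSMUSG00000024713) at chr19:17432319-17837632 on the minus strand and Pcsk6 (ENSMUSG00000030513) at chr7:65861734-66050386 on the plus strand. Pcsk7 (ENSMUSG00000035382) lies at chr9:45906497-45929726 on the plus strand, and its 3′ end shares 108 exonic bases with the 3′ end of Tagln on the opposite strand. Furin shares 118 exonic bases with the antisense gene Gm44851 and Pcsk6 shares 156 with Gm45213 on the same strand, in neither case at the 3′ end.

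The tagged cultures held 9518928 to 72482185 gene UMIs (unique molecular identifiers, 1 per captured transcript). Median UMIs per tagged cell were 7194 in WT, 32509 in Fgf23cKO, 21173 in Dmp1KO and 33199 in Dmp1KO/Fgf23cKO. All tagged cultures of a genotype were loaded in 1 droplet reaction, so that genotype and reaction cannot be told apart. In whole cultures Dmp1 stood at 27.3 to 108 CPM in WT (a gene's UMIs scaled to a common library total) and 7.55 to 65.0 in Fgf23cKO, at 0 to 0.0477 in Dmp1KO (3 UMIs in all) and at 1.32 to 2.16 in Dmp1KO/Fgf23cKO (149 UMIs). The labels number the cultures without naming animals, and the study's description gives as many mice as cultures for each genotype. The p-values measure the spread between these cultures. Fgf23 itself gave 9, 9, 2 and 1 UMIs in the tagged cultures of WT, Fgf23cKO, Dmp1KO and Dmp1KO/Fgf23cKO, too few to check its deletion. No barcode was shared within a genotype and 35 of 17793 occurred in more than 1 genotype.

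Cells were grouped into 20 clusters without use of the 6 genes, and clusters were named from marker lists. Among tagged cells, 213 were osteoblast/osteocyte-like, 314 fibroblastic stromal-like, 359 contractile stromal-like and 6215 macrophage-like. A further group of clusters carried macrophage markers but had leading genes that gave no clear name. Together with the macrophage-like clusters they made up 11401 tagged cells, the all-macrophage group. The summed level of the 12 osteoblast/osteocyte markers was 88849 to 133882 CPM in the osteoblast/osteocyte-like sums and 69.5 to 264 CPM in the macrophage-like sums. The 12 macrophage markers summed to 34547 to 44806 CPM in macrophage-like cells and to 3138 to 5884 CPM in osteoblast/osteocyte-like cells, none of them at 0. By number, these stromal cultures were mostly macrophage-marker cells.

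The 6 genes fell into different cell classes, and the divide ran between the glycosyltransferase with 2 of the convertases on the stromal side and the kinase on the myeloid side. Levels are given as CPM of a culture's summed cells and are compared across classes within a gene, not between genes. Galnt3 stood at 106 ± 34.6 CPM (SD, n = 6 cultures with at least 10 such cells) in osteoblast/osteocyte-like cells, 15.3 ± 9.32 (n = 11) in fibroblastic stromal-like cells, 4.47 ± 1.16 (n = 11) in macrophage-like cells and 1.2 ± 1.71 (n = 11) in contractile stromal-like cells. Pcsk6 had the widest gap between osteoblast/osteocyte-like and fibroblastic stromal-like cells, with 205 ± 94.7 CPM in the former, 4.26 ± 3.0 in the latter and 0.521 ± 0.277 in macrophage-like cells. Pcsk5 was at 60.0 ± 29.5 CPM in osteoblast/osteocyte-like cells and 34.5 ± 13.3 in fibroblastic stromal-like cells, and gave 6 UMIs in all 6215 macrophage-like cells.

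Fam20c was ordered the other way over the pooled cultures. It stood at 72.1 ± 15.3 CPM in macrophage-like cells (n = 11), 49.1 ± 31.4 in cycling cells (n = 11), 47.9 ± 8.26 in osteoclast-like cells (n = 4), 27.3 ± 25.9 in osteoblast/osteocyte-like cells and 22.3 ± 10.6 in fibroblastic stromal-like cells. These means pool unlike sets of genotypes. In WT, macrophage-like cells were at 46.0 to 53.7 CPM, osteoclast-like cells at 35.8 to 50.9 and cycling cells at 19.9 to 25.7. In Dmp1KO, cycling cells (114 and 102 CPM) exceeded macrophage-like cells (89.5 and 80.7). In Dmp1KO/Fgf23cKO 1 and 2, osteoblast/osteocyte-like cells were at 68.8 and 49.7 CPM, against 71.9 and 78.8 in macrophage-like cells. Furin, the broadly used convertase, was at 48.9 ± 9.20 CPM in osteoblast/osteocyte-like, 41.7 ± 7.40 in fibroblastic stromal-like, 39.6 ± 3.74 in macrophage-like, 39.0 ± 7.40 in osteoclast-like and 25.8 ± 7.12 in cycling cells, with overlapping spreads in the first 4. Pcsk7 was at 15.9 ± 7.21 CPM in osteoblast/osteocyte-like cells and between 20.1 and 25.2 in the fibroblastic, macrophage-like, cycling and osteoclast-like classes. In contractile stromal-like cells Fam20c was at 10.6 ± 12.9, Furin at 10.4 ± 8.83 and Pcsk7 at 4.19 ± 4.35 CPM (n = 11). With a median of 3473 UMIs per cell, that class gave 4 to 35 UMIs per gene in all, and its levels are imprecise.

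**Figure D1:**
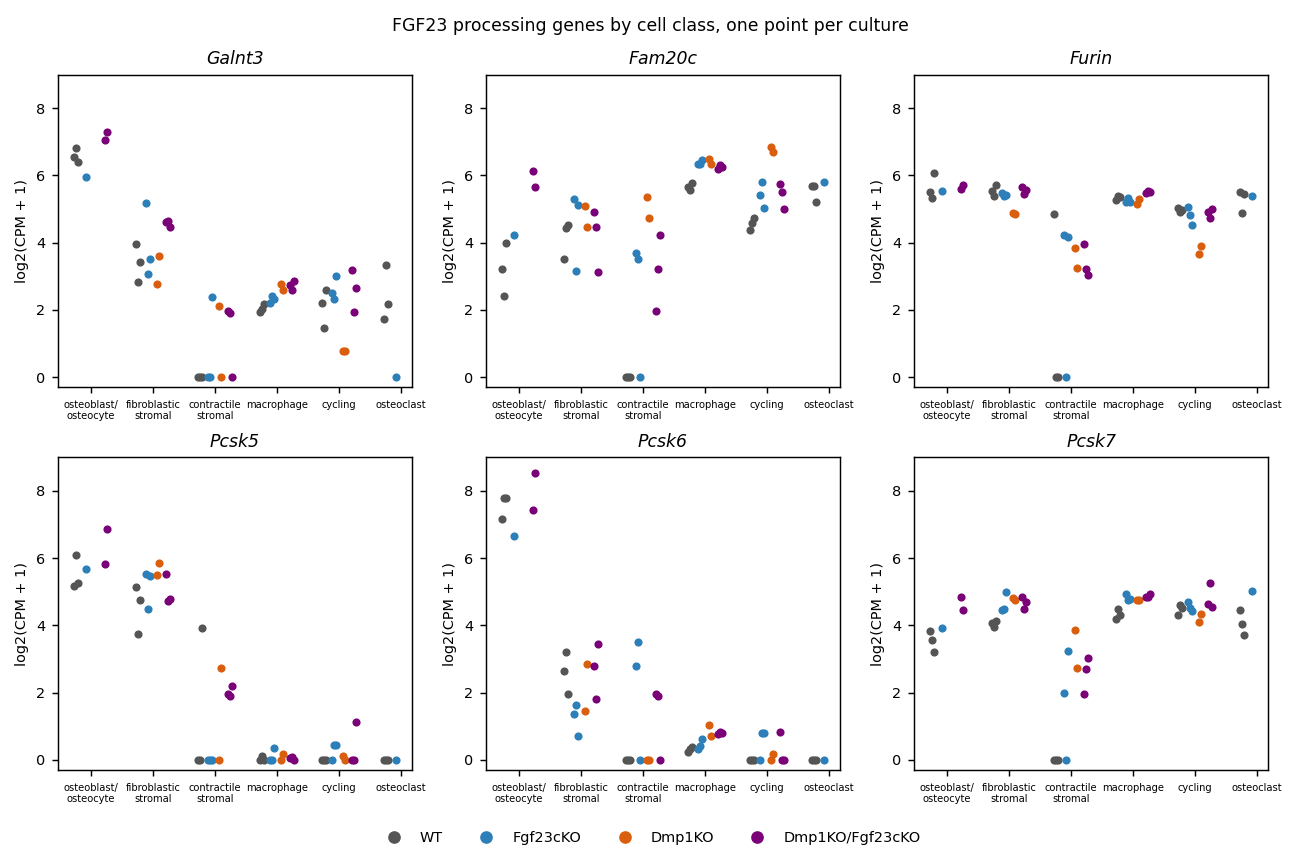
Level of each gene as log2(CPM + 1) on the vertical axis in 6 cell classes on the horizontal axis, with 1 point per culture that had at least 10 cells of the class and colours for the 4 genotypes. Galnt3, Pcsk5 and Pcsk6 are high in osteoblast/osteocyte-like cells and near 0 for Pcsk5 and Pcsk6 in macrophage-like cells, whereas Fam20c is lower in WT osteoblast/osteocyte-like cells than in macrophage-like cells.

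These orders were tested on sums per culture and class, with the culture as a block (edgeR quasi-likelihood test, call at an adjusted p under 0.1 over all genes tested). Between all stromal cells and macrophage-like cells of the same 11 cultures, 5 of the 6 genes were called, where 85.4% of 11998 genes were called. Galnt3 was higher in stromal cells by 3.22 ± 0.23 (log2, SE; edgeR adjusted p = 2.88e-09), Pcsk5 by 9.21 ± 0.21 and Pcsk6 by 6.92 ± 0.27. Fam20c was lower by -1.63 ± 0.12 (edgeR adjusted p = 3.06e-09) and Pcsk7 by -0.40 ± 0.08. Furin differed by -0.01 ± 0.10 (edgeR adjusted p = 0.898), and against all macrophage-marker cells it was higher by 0.20 ± 0.07 (edgeR adjusted p = 0.0195). Within the stromal cells, osteoblast/osteocyte-like cells exceeded fibroblastic stromal-like cells of the same cultures in 4 genes (42.4% of 9655 genes called): Pcsk6 by 6.08 ± 0.30, Galnt3 by 2.78 ± 0.31, Pcsk5 by 1.26 ± 0.32 and Furin by 0.52 ± 0.13 (edgeR adjusted p = 0.00908). The size factors moved the median of all genes by 0.42 there, and with library totals alone the Furin difference was 0.10 (edgeR adjusted p = 0.496), near the ratio of the CPM above. Fam20c differed there by 0.54 ± 0.37 (edgeR adjusted p = 0.297) and Pcsk7 by 0.09 ± 0.19. Against contractile stromal-like cells, the 4 genes that could be tested (Galnt3 5.72 ± 0.53, Pcsk6 5.64 ± 0.46, Pcsk5 4.41 ± 0.60, Furin 1.69 ± 0.43) were all higher in osteoblast/osteocyte-like cells, where 61.9% of 4908 genes were called. Against macrophage-like cells, osteoblast/osteocyte-like cells were higher in Pcsk5 by 10.42 ± 0.25, Pcsk6 by 9.02 ± 0.21, Galnt3 by 4.98 ± 0.15 and Furin by 0.56 ± 0.13 (0.28 with library totals alone, edgeR adjusted p = 0.0496) and lower in Fam20c by -0.99 ± 0.27 (74.3% of 11388 genes called). The macrophage side of the Pcsk5 and Pcsk6 folds rests on few UMIs, so their size depends on the small count that edgeR adds.

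The classes therefore held very unequal parts of each gene's transcripts. Osteoblast/osteocyte-like cells were 1.46% of tagged cells and 3.44% of their UMIs but gave 92.1% of Pcsk6 UMIs (2488 of 2700), 52.9% of Galnt3 UMIs (1321 of 2498) and 47.9% of Pcsk5 UMIs (757 of 1582). Fibroblastic stromal-like cells, 2.15% of cells, gave another 49.9% of Pcsk5 UMIs and 15.5% of Galnt3 UMIs. Fam20c came to 25.8% from macrophage-like cells, to 60.4% from the other macrophage-marker clusters and to 1.23% from osteoblast/osteocyte-like cells, but 19897 of its 31899 UMIs were from the Dmp1KO cultures. By genotype, macrophage-like cells gave 73.7% of Fam20c UMIs in WT, 50.4% in Fgf23cKO, 61.4% in Dmp1KO/Fgf23cKO and 5.42% in Dmp1KO, where the other macrophage-marker clusters gave 82.2%. The part of all UMIs in macrophage-like cells varied in the same order. It was 27268173 of 42103258 in WT, 24624822 of 58366744 in Fgf23cKO, 50257302 of 86104830 in Dmp1KO/Fgf23cKO and 12832358 of 135402729 in Dmp1KO. All macrophage-marker cells of Dmp1KO held 108677416 UMIs. These Fam20c shares thus also carry the make-up of each culture. Macrophage-like cells held 35.7% of all UMIs, 49.7% of Furin UMIs and 41.9% of Pcsk7 UMIs, and the other macrophage-marker clusters 37.5%, 21.9% and 33.4%. Per cell, 65.3% of osteoblast/osteocyte-like cells had a Pcsk6 UMI, 62.4% a Galnt3 UMI and 49.8% a Pcsk5 UMI, against 0.917%, 6.45% and 0.0965% of macrophage-like cells, at median depths of 29089 and 11708 UMIs. With each cell thinned to 1300 UMIs the shares were 18.6%, 6.91% and 3.19% in the 188 osteoblast/osteocyte-like cells deep enough, against 0.0483%, 0.515% and 0.0161% of 6214 macrophage-like cells. Pcsk6 in macrophage-like cells was at 0.179 to 0.294 CPM in WT and at 1.03 and 0.625 CPM in Dmp1KO, from 1 to 5 UMIs a culture, and free RNA as its source was not tested.

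**Figure D2:**
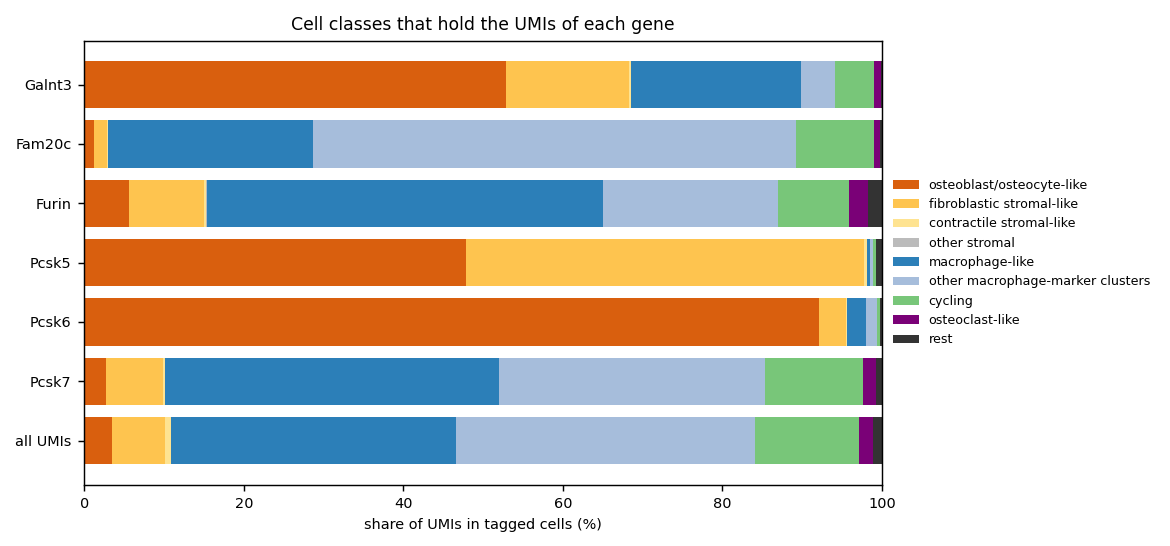
Share of each gene's UMIs (percent, horizontal axis) that came from each cell class, over all tagged cells of the 11 cultures, with the share of all UMIs as the bottom bar. Osteoblast/osteocyte-like cells hold 3.44% of all UMIs but 92.1% of Pcsk6 and 52.9% of Galnt3 UMIs, while macrophage-marker clusters hold most Fam20c UMIs.

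In osteoblast/osteocyte-like cells, Fam20c was the member that differed most between Dmp1KO/Fgf23cKO and WT. Tagged cells of the class gave 1 Fgf23 UMI in all, in Fgf23cKO culture 2. This class counted 115 tagged cells in WT, 28 in Fgf23cKO, 10 in Dmp1KO and 60 in Dmp1KO/Fgf23cKO, so that only WT (3 sums) and Dmp1KO/Fgf23cKO (2 sums) had at least 2 cultures with 10 cells or more. Fam20c was at 8.30, 4.33 and 14.9 CPM in the 3 WT cultures and at 68.8 and 49.7 CPM in Dmp1KO/Fgf23cKO cultures 1 and 2. The WT values rest on 5, 2 and 20 UMIs, the others on 92 and 153. Median UMIs per tagged cell of the class were 19314 in WT and 97736 in Dmp1KO/Fgf23cKO. The Fam20c levels of the 2 groups did not overlap, and the third Dmp1KO/Fgf23cKO culture, with 9 cells, stood at 32.4. The difference was 2.32 ± 0.35 (log2, SE; edgeR adjusted p = 0.00447). Pcsk7, the convertase PC7, rose by 1.11 ± 0.34 (edgeR adjusted p = 0.0842), from 13.3, 10.8 and 8.21 CPM in WT (8, 5 and 11 UMIs) to 27.7 and 21.1. That call ended when any 1 of the 5 sums was left out (edgeR adjusted p = 0.123 and 0.132 without WT cultures 1 and 2, 0.275 without WT 3, 0.358 and 0.198 without Dmp1KO/Fgf23cKO cultures 1 and 2). These were 2 of 6 members, where 10.8% of 9544 genes were called.

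The macrophage marker sum of these same sums was 3383 to 4382 CPM in WT and 3138 to 5884 CPM in Dmp1KO/Fgf23cKO, that is 2 ranges that overlap, whereas macrophage-like cells of Dmp1KO/Fgf23cKO held 43659 to 44435 CPM of these markers with Fam20c at 71.9 to 78.8 CPM. The part of macrophage RNA in the osteoblast Fam20c level was not tested. Cluster 16 held 93.6% of the UMIs of the class in WT and 97.3% in Dmp1KO/Fgf23cKO. With sums of 3 cells or more admitted from all genotypes, Fam20c differed between Dmp1KO/Fgf23cKO and WT by 2.15 ± 0.44 (edgeR adjusted p = 0.0215; 6.26% of 9131 genes called).

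The other members did not pass the test in these cells. Galnt3 was at 93.0, 112 and 82.8 CPM in WT and at 132 and 157 CPM in Dmp1KO/Fgf23cKO, ranges that do not overlap, with a difference of 0.51 ± 0.19 (edgeR adjusted p = 0.153), or 0.62 with library totals alone (0.0756). Pcsk6 was at 143, 223 and 219 CPM in WT and at 171 and 373 in Dmp1KO/Fgf23cKO (0.38 ± 0.31, edgeR adjusted p = 0.532). Furin was at 44.8, 38.9 and 65.7 CPM in WT and at 47.1 and 51.9 CPM (-0.18 ± 0.24, edgeR adjusted p = 0.724), and Pcsk5 at 34.9, 67.1 and 37.3 CPM and at 55.4 and 115 CPM (0.88 ± 0.35, edgeR adjusted p = 0.178).

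The few osteoblast/osteocyte-like cells of Dmp1KO and Fgf23cKO are described by their values. In Dmp1KO cultures 2 and 3, with 3 and 7 cells, Galnt3 was at 151 and 91.2 CPM, Pcsk6 at 331 and 274 CPM, and Furin at 9.45 and 14.0 CPM. These values of Galnt3 and Pcsk6 lay in or above the WT ranges and those of Furin below its WT range. In culture 2 all 16 Galnt3 and all 35 Pcsk6 UMIs came from 1 cell. In culture 3 the 26 Galnt3 UMIs came from 4 cells and the 78 Pcsk6 UMIs from 3. Furin rested on 1 and 4 UMIs, so these are levels of single cells more than of the class. With sums of 3 cells or more, none of the 6 members was called between Dmp1KO and WT by edgeR (0.646% of 9131 genes called, 1113 genes at an unadjusted p under 0.05), with Furin at -2.02 (adjusted p = 0.185), Galnt3 at 0.23 (0.864) and Pcsk6 at 0.57 (0.539). In Fgf23cKO, with 17, 7 and 4 cells, Pcsk6 was at 99.2, 84.0 and 90.5 CPM, under all WT and Dmp1KO/Fgf23cKO cultures, and Pcsk6 was higher in Dmp1KO/Fgf23cKO than in Fgf23cKO by 1.48 ± 0.30 (edgeR adjusted p = 0.0868; 0.329% of genes called). Galnt3 was at 61.2, 136 and 141 CPM and Fam20c at 17.8, 40.2 and 39.6 CPM in these cells. These Fam20c values lay above the WT range of 4.33 to 14.9 CPM, so WT was low against Fgf23cKO as well. In Dmp1KO cultures 2 and 3, Fam20c was at 9.45 and 31.6 CPM, from 1 and 9 UMIs.

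In fibroblastic stromal-like cells the convertases Furin and Pcsk7 were the members that differed, in opposite directions. Furin was at 45.8, 41.1 and 51.1 CPM in WT, 43.6, 40.9 and 41.6 in Fgf23cKO, 28.7 and 27.8 in Dmp1KO, and 49.1, 42.2 and 46.4 in Dmp1KO/Fgf23cKO. Both Dmp1KO cultures lay below all 9 others. Furin fell by 0.70 on the log2 scale between WT and Dmp1KO (SE 0.17, edgeR adjusted p = 0.0234), and was called higher by 0.67 ± 0.15 in Dmp1KO/Fgf23cKO than in Dmp1KO (edgeR adjusted p = 0.0963; 0.863% of 11709 genes called). Pcsk7 rose from 15.7, 14.4 and 16.4 CPM in WT to 27.0 and 26.1 CPM in Dmp1KO (0.78 ± 0.24, edgeR adjusted p = 0.0675) and to 27.5, 21.3 and 24.7 CPM in Dmp1KO/Fgf23cKO (0.63 ± 0.22, edgeR adjusted p = 0.0844; 20.2% of genes called). In Fgf23cKO Pcsk7 was at 21.0, 21.3 and 30.6 CPM, also above the WT cultures. Between Fgf23cKO and WT 0 of 6 members were called, where 14.2% of genes were called. Between Dmp1KO and WT Furin and Pcsk7 were 2 of 6 members, where 15.3% of 11709 genes were called.

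These calls were near the threshold. Without WT culture 3 the Furin difference between Dmp1KO and WT was -0.58 (edgeR adjusted p = 0.112), and it was -0.71 and -0.67 without Dmp1KO cultures 2 and 3 (0.138 and 0.158). The Pcsk7 difference between Dmp1KO and WT kept its size, 0.74 to 0.85, but not its call when any WT or Dmp1KO culture was left out (edgeR adjusted p = 0.115 to 0.229). Furin between Dmp1KO/Fgf23cKO and Dmp1KO lost its call without any 1 of 9 of the 11 cultures, all but WT 2 and Fgf23cKO 2 (0.61 to 0.73, edgeR adjusted p = 0.105 to 0.553). Pcsk7 between Dmp1KO/Fgf23cKO and WT lost it without any 1 of 8, all but Fgf23cKO 1, Fgf23cKO 3 and Dmp1KO/Fgf23cKO 2 (0.54 to 0.70, edgeR adjusted p = 0.1 to 0.199). Galnt3 was at 14.4, 6.17 and 9.64 CPM in WT, 5.87 and 11.2 in Dmp1KO and 23.7, 23.8 and 20.9 in Dmp1KO/Fgf23cKO. The Dmp1KO/Fgf23cKO cultures lay above those of WT and Dmp1KO, but neither difference passed the test (1.12 ± 0.55 against WT, edgeR adjusted p = 0.205, and 1.34 ± 0.54 against Dmp1KO, edgeR adjusted p = 0.306). The osteoblast/osteocyte marker sum in these fibroblastic sums was 5506 to 15905 CPM in WT, 6985 to 9370 in Dmp1KO and 14754 to 19472 in Dmp1KO/Fgf23cKO. The WT and Dmp1KO/Fgf23cKO ranges of that sum overlapped, and its part in the Galnt3 level was not tested. Pcsk5 was at 34.0, 12.3 and 26.0 CPM in WT and at 44.0 and 56.9 CPM in Dmp1KO (1.02 ± 0.39, edgeR adjusted p = 0.128). Fam20c ranged from 7.67 to 38.5 CPM with all 4 genotypes overlapping, and Pcsk6 from 0.650 to 9.80 CPM. In contractile stromal-like cells no member passed the filter on low counts, and of the 4586 genes that did, 5.67% were called between Dmp1KO and WT, 5.8% between Fgf23cKO and WT, 14% between Dmp1KO/Fgf23cKO and WT, 4.8% between Dmp1KO/Fgf23cKO and Dmp1KO, 1.31% between Dmp1KO/Fgf23cKO and Fgf23cKO and 1.24% for the interaction of both deletions.

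Over all stromal cells together, Furin, Galnt3 and Pcsk6 fell in Dmp1KO and Pcsk7 rose, and Pcsk6 fell and Pcsk7 rose in Fgf23cKO too. Furin was at 43.9, 35.2 and 57.5 CPM in WT, 25.5 and 24.3 in Dmp1KO and 46.2, 44.8 and 42.7 in Dmp1KO/Fgf23cKO, a fall of 1.01 on the log2 scale in Dmp1KO (SE 0.22, edgeR adjusted p = 0.00901). Galnt3 was at 45.2, 51.0 and 49.4 CPM in WT, 12.8 and 17.4 in Dmp1KO and 50.7, 84.2 and 47.8 in Dmp1KO/Fgf23cKO (-1.75 ± 0.41 in Dmp1KO against WT, edgeR adjusted p = 0.0143). Pcsk6 was at 60.8, 99.1 and 121 CPM in WT, 37.7, 32.4 and 8.71 in Fgf23cKO, 18 and 30.5 in Dmp1KO and 49.4, 174 and 74.2 in Dmp1KO/Fgf23cKO (-2.04 ± 0.65 in Dmp1KO, edgeR adjusted p = 0.0512, and -1.80 ± 0.55 in Fgf23cKO, edgeR adjusted p = 0.0596). All 3 Fgf23cKO cultures thus lay below all WT and Dmp1KO/Fgf23cKO cultures. Pcsk7 rose by 0.63 ± 0.20 in Fgf23cKO (edgeR adjusted p = 0.0653; 2 of 6 members called, 16.5% of genes), by 0.83 ± 0.21 in Dmp1KO and by 0.82 ± 0.19 in Dmp1KO/Fgf23cKO (edgeR adjusted p = 0.0221 and 0.0143, 24.3% of genes called in the latter). Between Dmp1KO and WT 4 of 6 members were called, where 26% of 12489 genes were called, and 3 members were higher in Dmp1KO/Fgf23cKO than in Dmp1KO (Furin 0.87, Galnt3 2.04, Pcsk6 2.06; 10% of genes called). None was called between Dmp1KO/Fgf23cKO and Fgf23cKO (1.47% of genes called by edgeR, 1826 genes at an unadjusted p under 0.05).

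The make-up of this pooled class differed between genotypes. Osteoblast/osteocyte-like cells were 115 of 296 tagged stromal cells in WT and 10 of 197 in Dmp1KO, and their marker sum over stromal cells was 41753 to 72897 CPM in WT, 9916 to 16765 in Dmp1KO and 35070 to 48652 in Dmp1KO/Fgf23cKO. In such sums fewer cells of a type and less RNA per cell cannot be told apart. The Furin values of fibroblastic stromal-like cells alone, given above, were lower in Dmp1KO as well, whereas the Galnt3 values there, 5.87 and 11.2 CPM against 6.17 to 14.4 CPM in WT, overlapped (-0.22 ± 0.67, edgeR adjusted p = 0.881). Without Dmp1KO culture 2 the stromal differences between Dmp1KO and WT were -1.55 for Galnt3 (edgeR adjusted p = 0.11) and -1.71 for Pcsk6 (0.252). Pcsk6 was also lost without WT 3 (-1.69, edgeR adjusted p = 0.157) and without Dmp1KO 3 (-2.46, 0.144), and Pcsk7 without Dmp1KO 3 (0.86, 0.102). Between Fgf23cKO and WT, Pcsk6 was lost without WT 2 or 3 or Fgf23cKO 2 or 3 (-1.45 to -1.93, edgeR adjusted p = 0.105 to 0.202) and Pcsk7 without WT 2 or 3 or Fgf23cKO 3 (0.45 to 0.62, 0.143 to 0.171). Between Dmp1KO/Fgf23cKO and Dmp1KO, Furin and Galnt3 lost their calls without Dmp1KO 2 (0.89 and 1.84, edgeR adjusted p = 0.216 and 0.182) or Dmp1KO 3 (0.81 and 2.28, 0.22 and 0.109), Furin also without Dmp1KO/Fgf23cKO 2 (0.81, 0.109), and Pcsk6 without any of these cultures, WT 2 or Dmp1KO/Fgf23cKO 3 (1.28 to 2.5, edgeR adjusted p = 0.105 to 0.394).

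In whole cultures, that is all cells of a culture summed, Dmp1KO differed from WT in 5 of the 6 genes (64.5% of genes called). Fam20c was at 42.2, 41.9 and 45.9 CPM in WT, 64.2, 70.0 and 72.3 in Fgf23cKO, 155 and 137 in Dmp1KO and 72.8, 75.6 and 62.5 in Dmp1KO/Fgf23cKO. The Dmp1KO cultures were the highest and the WT cultures the lowest, and Fgf23cKO and Dmp1KO/Fgf23cKO overlapped between them. Furin was at 38.3, 38.5 and 41.1 CPM in WT, 36.0, 36.5 and 31.1 in Fgf23cKO, 15.5 and 18.7 in Dmp1KO and 39.9, 42.8 and 39.5 in Dmp1KO/Fgf23cKO, with Dmp1KO below all the rest.

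Galnt3 was at 9.45, 6.62 and 10.4 CPM in WT, 12, 12.2 and 5.07 in Fgf23cKO, 1.21 and 2.23 in Dmp1KO and 11.9, 21.4 and 12.7 in Dmp1KO/Fgf23cKO. Pcsk6 was at 9.66, 6.92 and 18.3 CPM in WT, 8.75, 5.85 and 1.29 in Fgf23cKO, 0.80 and 1.73 in Dmp1KO and 7.84, 37.7 and 13.7 in Dmp1KO/Fgf23cKO. For Galnt3 both Dmp1KO cultures lay below all others, and for Pcsk6 the low Fgf23cKO culture fell between them. Pcsk5 was at 2.35 to 5.04 CPM in WT, 3.97 to 10.1 in Fgf23cKO, 1.23 and 2.34 in Dmp1KO and 4.98 to 14.0 in Dmp1KO/Fgf23cKO. Pcsk7 was at 17.2 to 20.5 CPM in WT, 22.9 to 24.4 in Fgf23cKO, 18.7 and 20.5 in Dmp1KO and 26.0 to 26.7 in Dmp1KO/Fgf23cKO.

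**Figure D3:**
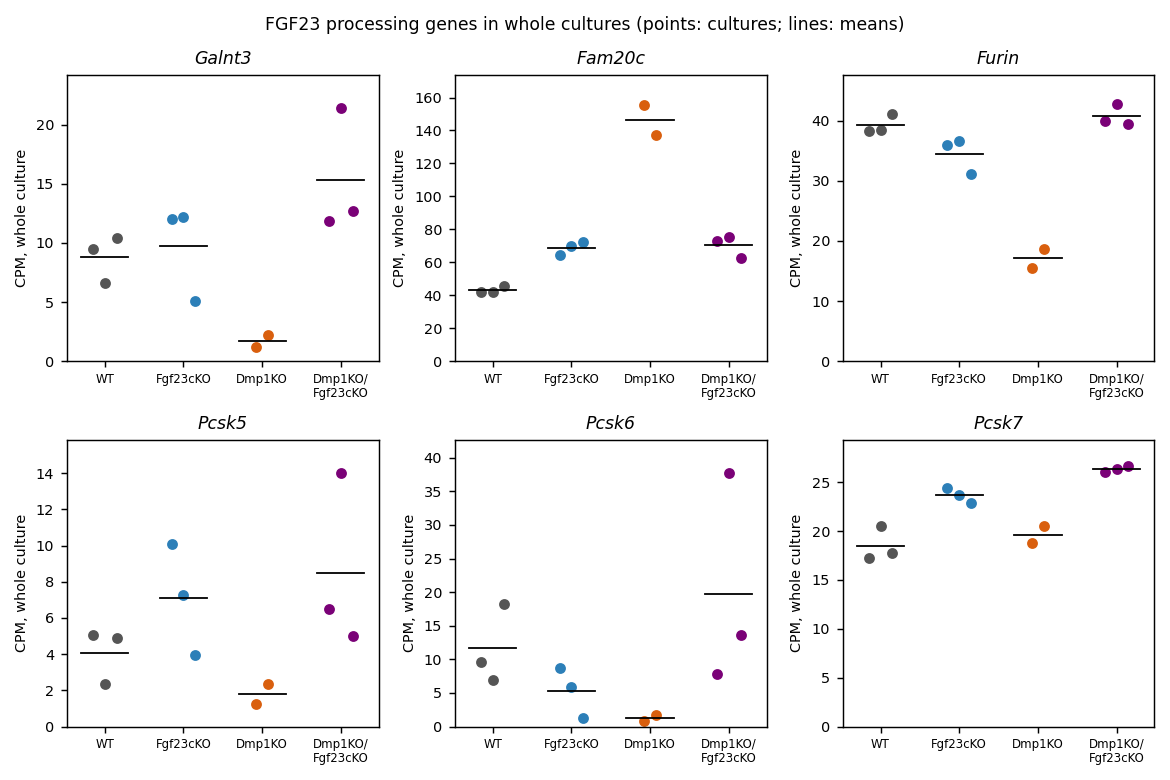
CPM of each gene in whole cultures (vertical axis, from 0) for the 4 genotypes, with 1 point per culture and a line at the mean. The 2 Dmp1KO points are the highest for Fam20c (137 and 155 CPM) and the lowest for Furin (15.5 and 18.7 CPM) and Galnt3 (1.21 and 2.23 CPM).

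Between Dmp1KO and WT, 5 of 6 members were called, where 64.5% of 15502 genes were called. Fam20c rose by 2.06 ± 0.10 (log2, SE; edgeR adjusted p = 2.19e-07) and Pcsk7 by 0.38 ± 0.08 (edgeR adjusted p = 0.00227), the latter at 0.14 with cells thinned to 1300 UMIs (edgeR adjusted p = 0.568) and at 0.08 with library totals alone (0.39). Furin fell by 0.90 (SE 0.09, edgeR adjusted p = 1.22e-05), Galnt3 by 2.06 (SE 0.44, edgeR adjusted p = 0.00239) and Pcsk6 by 2.92 (SE 0.87, edgeR adjusted p = 0.0146), and Pcsk5 differed by -0.89 ± 0.55 (edgeR adjusted p = 0.189). Against Dmp1KO, Dmp1KO/Fgf23cKO was lower in Fam20c by 1.42 and higher in Furin by 0.89, Galnt3 by 2.81, Pcsk6 by 3.62 and Pcsk5 by 1.91 (edgeR adjusted p from 2.18e-06 to 0.0111), 5 of 6 members where 62.7% of genes were called. Pcsk7 differed by 0.06 ± 0.08 there (edgeR adjusted p = 0.532).

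The Pcsk7 results of Dmp1KO whole cultures rest on the scaling. Size factors (TMM) set the median of all genes between Dmp1KO and WT at -0.03, against -0.33 with library totals alone, and that between Dmp1KO/Fgf23cKO and Dmp1KO at -0.05, against 0.31. With totals 19% of genes were called higher and 51.8% lower in Dmp1KO than in WT, against 32.5% and 32% with size factors. Pcsk7 was then higher in Dmp1KO/Fgf23cKO than in Dmp1KO by 0.43 (edgeR adjusted p = 0.000981), as its CPM, which do not overlap, show, and did not pass the test between Dmp1KO and WT. The calls of Fam20c, Furin, Galnt3 and Pcsk6 in both comparisons held with totals (Fam20c 1.75 and -1.05, Furin -1.20 and 1.25), and Pcsk5 was called lower in Dmp1KO than in WT (-1.18, edgeR adjusted p = 0.0873). The 2 comparisons share the Dmp1KO cultures. Without Dmp1KO culture 2, Pcsk6 between Dmp1KO and WT was -2.44 (edgeR adjusted p = 0.112) and Pcsk5 between Dmp1KO/Fgf23cKO and Dmp1KO was 1.52 (0.107).

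Against WT, Fam20c and Pcsk7 also rose in Fgf23cKO and in Dmp1KO/Fgf23cKO. In Fgf23cKO Fam20c rose by 0.62 ± 0.10 and Pcsk7 by 0.31 ± 0.08 (edgeR adjusted p = 0.000662 and 0.00947), and Furin fell by 0.23 (SE 0.08, edgeR adjusted p = 0.0417), 3 of 6 members where 45.1% of genes were called. The Furin call ended without WT 3 (-0.19, edgeR adjusted p = 0.14), without Fgf23cKO 3 (-0.17, 0.121) and with library totals alone (-0.19, 0.108). In Dmp1KO/Fgf23cKO Fam20c rose by 0.64 ± 0.09 and Pcsk7 by 0.45 ± 0.07 (edgeR adjusted p = 0.0004 and 0.000847; 51.8% of genes called), and the other 4 members differed by -0.01 to 1.03 without passing the test. Between Dmp1KO/Fgf23cKO and Fgf23cKO, Fam20c differed by 0.01 ± 0.09 (edgeR adjusted p = 0.94), and the calls of Furin (0.22 ± 0.08, edgeR adjusted p = 0.0786) and Pcsk6 (1.89 ± 0.70, 0.0962) each failed when single cultures were left out (23% of genes called). Furin lost its call without Fgf23cKO 1 or 3 or any Dmp1KO/Fgf23cKO culture (0.16 to 0.25, adjusted p = 0.108 to 0.232), and Pcsk6 without 8 of the 11 cultures (0.99 to 2.09, adjusted p = 0.105 to 0.381), all but WT 2, Fgf23cKO 1 and Dmp1KO/Fgf23cKO 1.

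With size factors, Galnt3 and Pcsk6 were called lower in whole Dmp1KO cultures than in WT, and Pcsk5 was not. Osteoblast/osteocyte-like cells were 2.32% of tagged cells in WT, 1.74% in Fgf23cKO, 0.179% in Dmp1KO and 2.49% in Dmp1KO/Fgf23cKO. The part of their number in these values was not tested. The osteoblast/osteocyte marker sum of whole cultures was 4155 to 11054 CPM in WT, 344 to 867 in Dmp1KO and 5281 to 10579 in Dmp1KO/Fgf23cKO. When these cells were taken out, Pcsk6 differed between Dmp1KO and WT by -0.13 ± 0.37 (edgeR adjusted p = 0.782), Pcsk5 by 0.23 ± 0.58 (0.761), and Galnt3 still by -1.16 ± 0.31 (0.00858). Taking them out removes 2488 of 2700 Pcsk6 UMIs, so the Pcsk6 result was largely fixed in advance. It removes 393 of 31899 Fam20c UMIs and 536 of 9492 Furin UMIs, so the results of Fam20c and Furin could hardly change. Fam20c and Furin, whose UMIs lie mostly in macrophage-marker cells, kept differences of 1.97 ± 0.10 and -0.89 ± 0.08 in the same sums, so that 4 of 6 members were called with Pcsk7 (0.32, and 0.04 with library totals alone, edgeR adjusted p = 0.704), where 63.6% of 15219 genes were called. Against WT, 4 members were called in Fgf23cKO (50.2% of genes called) and 4 in Dmp1KO/Fgf23cKO (55.8%), among them Pcsk6 in Dmp1KO/Fgf23cKO (1.28 ± 0.33, edgeR adjusted p = 0.00862), and 4 for the interaction of both deletions (55.6%). Between Dmp1KO/Fgf23cKO and Dmp1KO, Galnt3 was higher by 1.97 ± 0.30 and Pcsk6 by 1.41 ± 0.32 without the osteoblast/osteocyte-like cells (edgeR adjusted p = 0.000249 and 0.00335), at 0.995 to 1.76 against 0.318 and 0.495 CPM for Pcsk6, and 4 members were called there (63.5% of genes called).

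**Figure D4:**
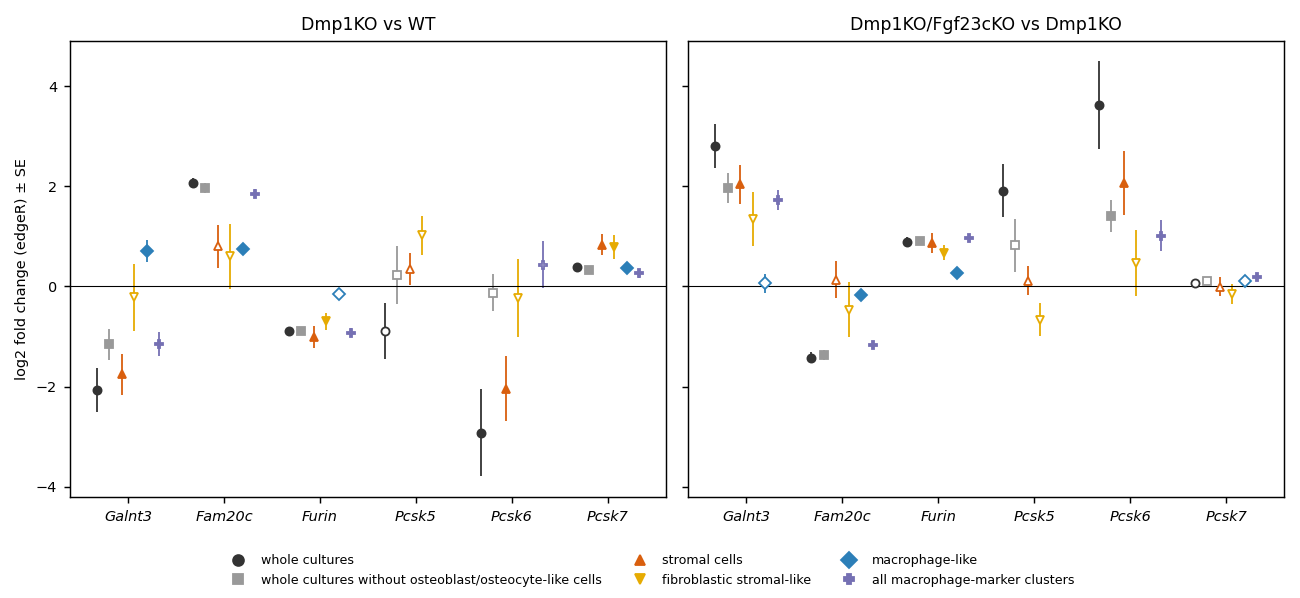
Log2 fold change with its standard error (vertical axis) for each gene between Dmp1KO and WT (left) and between Dmp1KO/Fgf23cKO and Dmp1KO (right), in 6 sets of cells. Filled symbols passed the edgeR test and open ones did not. Pcsk6 between Dmp1KO and WT is -2.92 in whole cultures and -0.13 without osteoblast/osteocyte-like cells, and Fam20c is 2.06 and 1.97. The cells taken out hold 2488 of 2700 Pcsk6 UMIs and 393 of 31899 Fam20c UMIs, so both outcomes were largely fixed in advance.

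In macrophages, Fam20c was higher than WT in each other genotype. Named macrophage-like cells had Fam20c at 49.1, 46.0 and 53.7 CPM in WT, 79.7, 80.1 and 87.4 in Fgf23cKO, 89.5 and 80.7 in Dmp1KO and 71.9, 78.8 and 75.7 in Dmp1KO/Fgf23cKO, with no overlap between WT and any other genotype. Fam20c rose by 0.74 ± 0.08 in Dmp1KO, 0.69 ± 0.07 in Fgf23cKO and 0.56 ± 0.06 in Dmp1KO/Fgf23cKO (edgeR adjusted p = 1.49e-07, 5.93e-08 and 3.08e-07), and was lower in Dmp1KO/Fgf23cKO than in Dmp1KO by 0.18 (edgeR adjusted p = 0.0804). The last call ended without Dmp1KO 2 (-0.12, edgeR adjusted p = 0.459), Dmp1KO/Fgf23cKO 1 (-0.14, 0.24) or Dmp1KO/Fgf23cKO 3 (-0.18, 0.109) and with library totals alone (-0.16, 0.116). Pcsk7 was at 17.1, 21.7 and 19 CPM in WT and between 25.8 and 29.7 CPM in all 8 other cultures, rising by 0.37 to 0.48 (edgeR adjusted p from 4.89e-05 to 0.00807). Galnt3 rose from 2.86, 3.06 and 3.52 CPM in WT to 5.79 and 5.00 in Dmp1KO (0.70 ± 0.22, edgeR adjusted p = 0.0136) and to 5.63, 5.06 and 6.29 in Dmp1KO/Fgf23cKO (0.76 ± 0.17, edgeR adjusted p = 0.000798). The osteoblast/osteocyte marker sum in these sums was 139 to 159 CPM in WT, 69.5 to 73.2 in Dmp1KO and 260 to 264 in Dmp1KO/Fgf23cKO, lowest in Dmp1KO, where Galnt3 was above its WT range. When the 6 genes were allowed to define the clusters, Galnt3 differed between Dmp1KO and WT in macrophage-like cells by -0.09 (edgeR adjusted p = 0.727). With all cells thinned to 1300 UMIs, Pcsk7 differed by 0.23 (edgeR adjusted p = 0.694), and depth per cell differed between genotypes as given above.

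Furin was at 37.7, 41.1 and 40.0 CPM in WT, 35.7, 38.7 and 36.2 in Fgf23cKO, 34.3 and 38.5 in Dmp1KO and 43.7, 45.8 and 44.4 in Dmp1KO/Fgf23cKO in this class. It was higher in Dmp1KO/Fgf23cKO than in Dmp1KO by 0.26 ± 0.08 and than in Fgf23cKO by 0.26 ± 0.06 (edgeR adjusted p = 0.0195 and 0.0063), and the first of these ended without Dmp1KO 2 (0.19, edgeR adjusted p = 0.196). It differed between Dmp1KO and WT by -0.15 ± 0.08 (edgeR adjusted p = 0.152). Of the 4 members that passed the low-count filter, 3 were called between Dmp1KO and WT (52.1% of 12594 genes called), 3 between Fgf23cKO and WT (49.4%), 3 between Dmp1KO/Fgf23cKO and WT (60.3%), 2 between Dmp1KO/Fgf23cKO and Dmp1KO (26.1%) and 2 between Dmp1KO/Fgf23cKO and Fgf23cKO (25.3%, with Galnt3 at 0.48, edgeR adjusted p = 0.0491), and 3 for the interaction of both deletions (38.1%). Galnt3 was lost there without Fgf23cKO 1 or 3 or Dmp1KO/Fgf23cKO 1 or 3 (0.41 to 0.48, edgeR adjusted p = 0.108 to 0.171). Furin between Fgf23cKO and WT (-0.15, edgeR adjusted p = 0.0967) was lost without any of 9 cultures, all but WT 1 and Fgf23cKO 2 (-0.12 to -0.15, adjusted p = 0.104 to 0.244), and with library totals alone (-0.11, 0.205).

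The macrophage-like cells of the genotypes lay in different clusters. Cluster 1 held 2898 of 3371 WT cells, and cluster 0 held 599 of 668 Fgf23cKO, 751 of 797 Dmp1KO and 1347 of 1379 Dmp1KO/Fgf23cKO cells. Within cluster 0, WT cultures (11, 18 and 19 cells) had Fam20c at 89.5, 85.0 and 84.4 CPM, Fgf23cKO at 75.2, 76.8 and 83.5, Dmp1KO at 85.5 and 79.3 and Dmp1KO/Fgf23cKO at 71.5, 77.5 and 75.7, and Fam20c did not pass the test between Dmp1KO and WT (0.13 ± 0.22, edgeR adjusted p = 0.818; 11.3% of 12131 genes called). Within cluster 1, WT had Fam20c at 40.2, 36.1 and 44.8 CPM, and Dmp1KO cultures 2 and 3, with 11 and 10 cells, at 91.9 and 80.8. The WT cells of cluster 0 thus lay above the Fam20c range of the WT class, and the Dmp1KO cells of cluster 1 above the WT cells of that cluster.

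In Dmp1KO most macrophage-marker cells were not in the named class: 797 of 4669 were macrophage-like, against 3371 of 3901 in WT. Over all macrophage-marker cells Fam20c was at 53.1, 46.6 and 57.2 CPM in WT, 86.5, 90.6 and 92.6 in Fgf23cKO, 169 and 150 in Dmp1KO and 83.8, 92.4 and 79.1 in Dmp1KO/Fgf23cKO. Furin was at 37.1, 41.0 and 39.4 CPM in WT, 16 and 19.2 in Dmp1KO and 40.5, 43.9 and 40.4 in Dmp1KO/Fgf23cKO. Here Dmp1KO was apart from all other genotypes in both genes. Against WT, Fam20c rose by 1.85 ± 0.09 and Furin fell by 0.93 (SE 0.09; edgeR adjusted p = 8.12e-10 and 5.25e-07), and Galnt3 was lower, at 0.906 and 1.56 against 2.85 to 3.43 CPM (-1.15 ± 0.23, edgeR adjusted p = 0.000606), the opposite of its direction in the named class. These were 4 of the 5 members tested, with Pcsk7 at 0.26 ± 0.09 (0.03 with library totals alone, edgeR adjusted p = 0.799), where 69.7% of 13454 genes were called. Dmp1KO/Fgf23cKO was lower than Dmp1KO in Fam20c by 1.18 and higher in Furin by 0.97 and Galnt3 by 1.73, and all 5 members tested were called (67.3% of genes called). Against WT, 3 of 5 were called in Fgf23cKO (49.3%) and 4 of 5 in Dmp1KO/Fgf23cKO (55.8%), with Fam20c higher by 0.78 ± 0.09 and 0.67 ± 0.09. The osteoclast marker sum of these cells was 221 to 256 CPM in WT, 923 to 1048 in Dmp1KO and 223 to 235 in Dmp1KO/Fgf23cKO, and its part in the result was not tested.

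The unnamed clusters differed from the named ones in both genes. Pooled over tagged and untagged cells, Fam20c was at 240 CPM in cluster 3, 136 in cluster 2, 132 in cluster 7 and 78.7 in cluster 5, against 77.2 in cluster 0 and 43.1 in cluster 1. Furin ran the other way, at 9.05, 21.9, 16.1 and 24.6 CPM in these 4 clusters against 42.1 and 40.6. Cluster 3, which was led by Itgax, Mmp12 and Mfge8, held 1117 tagged cells of Dmp1KO, 4 of WT, 15 of Fgf23cKO and 27 of Dmp1KO/Fgf23cKO, with Fam20c at 239 and 241 CPM and Furin at 8.44 and 8.79 CPM in the 2 Dmp1KO cultures. Cluster 2, led by Fbxo32, Ddit3 and Trib3, had enough cells in 3 genotypes. Fam20c there was at 88.8, 113 and 93.6 CPM in Fgf23cKO, 166 and 154 in Dmp1KO and 137, 145 and 75.6 in Dmp1KO/Fgf23cKO, and Furin at 26.7, 27.0 and 22.2, at 16.5 and 18.6, and at 31.7, 28.5 and 27.5. Within that 1 cluster Furin was higher in Dmp1KO/Fgf23cKO than in Dmp1KO by 0.68 ± 0.15 and Fam20c lower by 0.46 (edgeR adjusted p = 0.00432 and 0.0684), 2 of 3 members tested where 29.5% of 10065 genes were called. Since these clusters were built from genes that differ between the genotypes, their cell numbers are not compared by a test.

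In cycling cells, which carried macrophage markers too, Fam20c was again higher and Furin and Galnt3 lower in Dmp1KO than in WT. Fam20c was at 19.9, 22.8 and 25.7 CPM in WT and at 114 and 102 in Dmp1KO (2.46 ± 0.20, edgeR adjusted p = 1.7e-08), Furin at 31.7, 29.2 and 30.2 and at 11.6 and 14.0 CPM (-1.01 ± 0.18, edgeR adjusted p = 0.000158), and Galnt3 at 1.75 to 5.03 and at 0.706 and 0.720 CPM (-2.0 ± 0.62, edgeR adjusted p = 0.0135). Pcsk7 differed by -0.07 ± 0.20 (edgeR adjusted p = 0.812), so that 3 of the 4 members tested were called, where 50.4% of 10861 genes were called. Dmp1KO/Fgf23cKO was lower than Dmp1KO in Fam20c by 1.58 and higher in Furin by 0.87 and Galnt3 by 2.68 (45.7% of genes called), Fam20c alone was called against WT in Dmp1KO/Fgf23cKO (0.88 ± 0.22, 33% of genes called) and in Fgf23cKO (0.87 ± 0.22, 25.6%), and 3 members were called for the interaction of both deletions (38.4%). In osteoclast-like cells only WT had 3 cultures with enough cells, and Fam20c was there at 50.4, 50.9 and 35.8 CPM and Furin at 44.5, 28.2 and 42.8 CPM. Fewer than 2 cultures of each other genotype had 10 such cells, and no comparison was made.

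**Figure D5:**
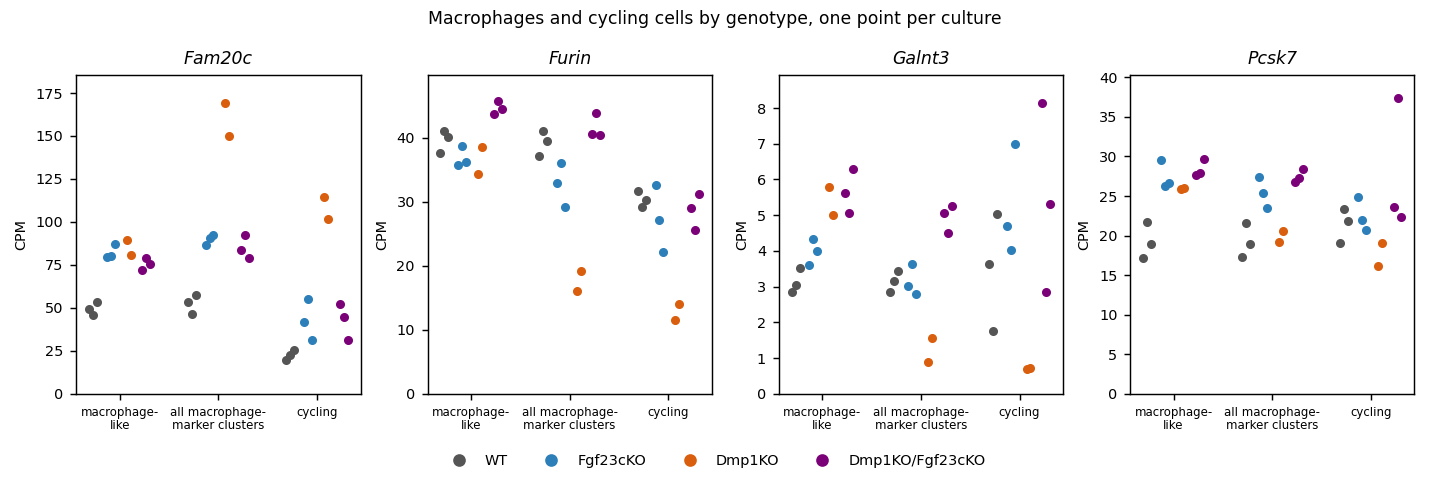
CPM (vertical axis, from 0) of Fam20c, Furin, Galnt3 and Pcsk7 in macrophage-like cells, in all macrophage-marker clusters and in cycling cells, with 1 point per culture and colours for genotype. In the last 2 sets the Dmp1KO points stand apart, with Fam20c at 102 to 169 CPM and Furin at 11.6 to 19.2 CPM, while in macrophage-like cells they lie among the other mutants.

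The related genes of each enzyme family and their substrates were counted over whole cultures, where the median of all genes between Dmp1KO and WT was -0.03 and 32.5% of genes were called higher and 32% lower. In these sums the share of osteoblast/osteocyte-like cells was 2.32% in WT and 0.179% in Dmp1KO. Of 15 other GalNAc transferases tested, 3 rose (Galnt12 1.83, Galnt6 1.04, Galnt7 0.49) and 8 fell, the largest fall being that of Galnt5 (-4.59 ± 1.03, edgeR adjusted p = 0.00337), with a median of -0.54, that is 11 of 15 called where 64.5% of all genes were. Of 11 genes that extend or cap O-glycans, 3 rose and 5 fell (median -0.30), among them C1galt1, which makes the core O-glycan (-0.45), and the sialyltransferase St6galnac4 (0.69). Of 3 other convertases, Mbtps1 fell by 0.43, and Pcsk1, the neuroendocrine convertase, was called higher in Dmp1KO (5.44 ± 1.11, edgeR adjusted p = 0.00187) from 1 UMI in WT to 134 UMIs, a level of 0.938 to 1.04 CPM in Dmp1KO. That fold depends on the small count that edgeR adds. The single convertase helper tested, Scg5, was at 0.21. Of 5 other genes of the FAM20 and Golgi kinase group, Gask1b (0.58) and Pkdcc (0.42) rose and Fam20b, a xylose kinase, fell by 0.28 (median 0.04). With library totals alone Gask1b and Pkdcc did not pass the test (0.27 and 0.12, edgeR adjusted p = 0.118 and 0.503).

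The targets of these enzymes moved as well. Of 18 convertase substrates, 12 fell and none rose in Dmp1KO (median -0.51), with Bmp4 at -2.51 and the membrane protease Mmp14 at -1.78, where 32% of all genes fell, and 13 were higher in Dmp1KO/Fgf23cKO than in Dmp1KO with none lower (median 0.68), where 27.2% of all genes were higher. Without the osteoblast/osteocyte-like cells 11 of the 18 fell and none rose in Dmp1KO (median -0.58; 31.9% of all genes fell). Of 4 bone matrix substrates of FAM20C, Ibsp (-3.13), Mepe (-5.19) and Dmp1 (-10.91, a gene deleted by design) fell and Spp1, osteopontin, rose by 2.67, from 1839 to 2444 CPM in WT to 10140 and 12350 CPM. Spp1 moved back by 2.53 in Dmp1KO/Fgf23cKO. Of 7 genes of the list of FGF23 and its regulators, 5 fell, among them Dmp1, whose fall the deletion fixes, and Mepe, which are both in the list above too (Phex, the X-linked hypophosphatemia gene, by 2.67, and Enpp1 and Slc20a1 by 0.65 and 0.28) and all 7 were higher in Dmp1KO/Fgf23cKO than in Dmp1KO. Of 12 genes that respond to cell dissociation, 3 rose and 6 fell (Egr1 -1.99, Atf3 1.31), and their part in the results was not tested. In osteoblast/osteocyte-like cells, Dmp1KO/Fgf23cKO differed from WT in Phex (0.84, edgeR adjusted p = 0.0939), Ibsp (-1.05), the kinases Fam20b (-1.0) and Gask1b (-1.03), and the GalNAc transferases Galnt2 (0.70) and Galnt13 (-1.79).

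In macrophage-like cells 2 of 9 other GalNAc transferases rose in Dmp1KO (Galnt2 0.54, Galnt12 0.38) and 5 fell, against a median of 0.00 over all genes, of which 26.3% rose and 25.8% fell. Of 14 convertase substrates 7 rose and 4 fell, with Bmp2 (3.54 ± 0.28, edgeR adjusted p = 2.21e-09), Tgfb2 (2.01), Mmp14 (-0.79) and the receptor Lrp1 (-0.77) among them. Their median was 0.10. Gask1b (-0.60) and Mbtps1 (-0.30) fell.

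Over 54 sums of a culture and class, the genes with the pattern closest to each member were Itga10, Chsy1 and Tmtc2 for Galnt3 (Pearson r of log2(CPM + 1) from 0.886 to 0.863), Ccdc115, Fbrs and Csf2rb for Fam20c (0.877 to 0.858), Phf21a, Baz2a and Ppp1r15a for Furin (0.939 to 0.925), Gxylt2, Kif21a and Sema5a for Pcsk5 (0.943 to 0.938), Pdzd2, Adgrd1 and Kcnk1 for Pcsk6 (0.948 to 0.927) and Zfp62, Prcc and Rnf138 for Pcsk7 (0.963 to 0.939). The search covered 8917 genes with a mean of at least 10 CPM. Sums of 1 culture share its library and its depth, and for the broadly expressed Furin and Pcsk7 the low contractile sums weigh on the r, so these values describe the data and are not tests.

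Few cells held the hormone and its enzymes together. Over tagged and untagged samples 11 cells had an Fgf23 UMI, and 10 of them lay in macrophage-marker clusters, 7 of these macrophage-like. Of the 11, 8 had a Pcsk7 UMI, 7 a Fam20c UMI, 7 a Furin UMI, 2 a Galnt3 UMI, 1 a Pcsk5 UMI and 1 a Pcsk6 UMI. The cell with all 6 was the 1 osteoblast/osteocyte-like cell, from Fgf23cKO culture 2, with 15 Galnt3, 13 Fam20c, 11 Furin, 1 Pcsk5, 21 Pcsk6 and 2 Pcsk7 UMIs among 182590.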

How the data were processed

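Single-cell libraries of 21-day bone marrow stromal cell cultures were analysed from the unnormalised counts that the authors deposited, as UMIs per gene and cell. Per the labels and the study's methods, live 7AAD-negative cells were sorted, tagged by culture, run as 1 droplet reaction per genotype and counted with Cell Ranger on mm10. Counts were available for 15 of 16 samples (17793 cells). Dmp1KO culture 1 (1935 barcodes) was not analysed here. The fourth sample of each genotype was read as its untagged cells.

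Cells were clustered with Seurat 5.3.0 and sctransform 0.4.2 (R 4.3.3; 3000 variable genes without the 6 members, 30 components, resolution 0.8). Clusters were named from marker lists. No doublet caller was run. The samples had been split by tag, which leaves doublets of cells from the same culture in place. Counts were summed per culture and class (at least 10 cells) and tested with edgeR 4.0.16 (TMM, filterByExpr, quasi-likelihood test, Benjamini-Hochberg adjustment over all genes tested, threshold 0.1). Culture was a block for comparisons of classes. CPM are UMIs scaled to the total of the sum. The members and lists were chosen with earlier results of these data known.

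The rule for naming genes took all 6 members, and genes of the lists that passed the threshold or stood beside a member's result. Of those that passed, examples with large changes were named and the others counted. The 3 genes most like each member were taken by Pearson's r. Alternatives included DESeq2 1.42.0, other size factors, library totals without size factors (added after seeing the data), filters, resolutions, thinning to 1300 UMIs and leaving out each culture. Numbers of cultures were checked for pairing: 4 of 15 same-number pairs correlated above 0.1 (r from -0.273 to 0.274), as did 13 of 30 different-number pairs (r from -0.318 to 0.315). These r are of deviations from genotype means, which cancel within a genotype, so they cannot exclude a pairing. The main fit did not pair cultures by number. The test was tested on simulated data: for Dmp1KO against WT in whole cultures (15502 genes) it recovered 71% of 2-fold and 96% of 4-fold changes, in fibroblastic stromal-like cells (11709 genes) 49% and 86%. The shares were 89% and 93% in macrophage-like, 36% and 87% in stromal and 6% and 43% in contractile cells. For Dmp1KO/Fgf23cKO against WT in osteoblast/osteocyte-like cells they were 47% and 89%. False calls were 6.21% to 11.5% of calls. Only 200 genes were changed, as many up as down, whereas 64.5% of genes were called in whole cultures. The simulation therefore does not check the scaling. Intervals of counts and CPM cover counting error only. Coordinates and the site sequence are of GRCm38.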

Additional observations from a re-analysis of the deposited data

Results flagged for a closer look

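The difference between Fgf23cKO and WT was unlike that between Dmp1KO/Fgf23cKO and Dmp1KO in 12 member results. The test was edgeR's interaction, (Dmp1KO/Fgf23cKO minus Dmp1KO) minus (Fgf23cKO minus WT), on the log2 scale at an adjusted p under 0.1. The 12 results come from sets of cells that overlap, since whole cultures hold the other sets and stromal cells hold the fibroblastic ones. In whole cultures, where 55.4% of 15502 genes were called, these were Galnt3 at 2.71 ± 0.56 (SE; adjusted p = 0.00261), Fam20c at -2.05 ± 0.14 (3.01e-06), Pcsk6 at 4.81 ± 1.11 (0.00505), Furin at 1.12 ± 0.12 (3.13e-05) and Pcsk7 at -0.25 ± 0.11 (0.0863). For Fam20c the difference between Fgf23cKO and WT was 0.62 and that between Dmp1KO/Fgf23cKO and Dmp1KO -1.42, for Furin -0.23 and 0.89, and for Galnt3 0.10 and 2.81. The Pcsk7 value lost its call without any 1 of 8 cultures (-0.18 to -0.26, edgeR adjusted p = 0.122 to 0.17), all but WT 2, Fgf23cKO 3 and Dmp1KO 2, and was 0.07 with library totals alone (0.59).

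In macrophage-like cells, where 38.1% of 12594 genes were called, Fam20c was at -0.87 ± 0.10 (edgeR adjusted p = 8.07e-07), Furin at 0.41 ± 0.10 (0.00489) and Pcsk7 at -0.34 ± 0.13 (0.0561), the last lost without WT 1 or 3, Fgf23cKO 1, either Dmp1KO culture or Dmp1KO/Fgf23cKO 1 (-0.28 to -0.35, adjusted p = 0.103 to 0.183). In all stromal cells, where 17.9% of 12489 genes were called, Galnt3 was at 2.34 ± 0.51 (edgeR adjusted p = 0.0152), Pcsk6 at 3.86 ± 0.84 (0.0152) and Furin at 1.11 ± 0.27 (0.0257), with Furin at 1.01 without Dmp1KO 3 (0.12). In fibroblastic stromal-like cells, where 6.91% of 11709 genes were called, Furin was at 0.77 ± 0.21 (edgeR adjusted p = 0.0685), lost without any 1 of 8 cultures, all but WT 1, WT 2 and Dmp1KO/Fgf23cKO 2 (0.65 to 0.79, adjusted p = 0.101 to 0.238). In macrophage-like cells WT was the low group for Fam20c, at 46.0 to 53.7 CPM against 71.9 to 89.5 in the other genotypes. Within cluster 0, where WT had few cells, 0 of the 4 members tested were called for the interaction (10.9% of 12131 genes called). Each genotype was 1 droplet reaction, and reaction and genotype cannot be told apart in any of these values.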

How the results depend on the processing

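Over 80 single-gene results and 1854 alternatives, 1601 kept direction and side of the threshold, 199 lost and 21 gained a call, and 33 turned. Each genotype had 2 or 3 cultures in 1 reaction, osteoblast/osteocyte-like cells were few in Dmp1KO and Fgf23cKO, and contractile cells were shallow. Where a left-out culture leaves 1 sum in a group, that sum is assumed to vary like the others. Causes of the changes were not tested.

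Counts of member calls between genotypes moved by over 1.5 times as follows. Thinning to 1300 UMIs left 9 of 22 in whole cultures and 5 of 16 in macrophage-like cells, and 1 of 5 between stromal and macrophage-like cells, with 1 member tested. Cluster 0 alone and cluster 2 alone, both chosen after seeing the data, gave 2 and 2. Fibroblastic cells gave 5, against 1 by DESeq2, 9 without a filter, 3 with untagged samples and 1 at 0.05. Osteoblast/osteocyte-like cells gave 2, against 1 by DESeq2, 4 without a filter, 1 with sums of at least 3 cells and 1 at 0.05. Contractile cells gave 0, and 1 without a filter. Osteoblast/osteocyte-like against contractile cells gave 4, and 2 with sums of at least 3 cells, with 2 tested. Thinned shares of cells with a UMI were 6.91%, 3.19% and 18.6% for Galnt3, Pcsk5 and Pcsk6 in osteoblast/osteocyte-like cells and 7.47%, 5.15% and 2.99% for Fam20c, Furin and Pcsk7 in macrophage-like cells. Leaving out single cultures gave 19 to 22 calls in whole cultures, 12 to 16 in macrophage-like, 7 to 16 in stromal, 0 to 4 in fibroblastic, 1 to 2 in osteoblast/osteocyte-like and 0 to 0 in contractile cells, and 5 to 5 and 4 to 4 between classes.

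With the replicate block there were 19 calls in whole cultures, 14 in macrophage-like, 12 in stromal, 3 in fibroblastic, 1 in osteoblast/osteocyte-like and 0 in contractile cells. The block turned Galnt3 between Dmp1KO and WT in fibroblastic cells to 0.16 and Furin between Dmp1KO/Fgf23cKO and WT in osteoblast/osteocyte-like cells to 0.13. By the labels, same-number cultures share only a number.

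Between Dmp1KO and WT, Pcsk5 in whole cultures turned to 0.23 without osteoblast/osteocyte-like cells. In the macrophage analysis, Galnt3 turned to -0.09 with the members among the variable genes, -1.15 over all macrophage-marker clusters and -2.0 in cycling cells, Furin to 0.69 in cluster 0 and Pcsk7 to -0.07 in cycling cells. Furin between Fgf23cKO and WT turned to 0.12 thinned and 0.73 in cluster 0, and Fam20c between Dmp1KO/Fgf23cKO and WT to -0.02 in cluster 0. The macrophage interaction of Furin turned to -0.48 in cluster 0 and that of Pcsk7 to 0.34 thinned and 0.31 in cycling cells. In whole cultures the Pcsk7 interaction turned to 0.11 thinned and 0.07 with library totals alone, an alternative chosen after seeing the data, and Pcsk7 between Dmp1KO/Fgf23cKO and Dmp1KO to -0.0018 without a filter. Furin between stromal and macrophage-like cells turned to 0.02 with RLE factors, 0.02 by DESeq2, 0.01 with library totals, 0.05 with untagged samples, 0.10 with members among the variable genes and 0.20 over all macrophage-marker clusters, and ran from -0.13 to 0.06 without single cultures. Without single cultures Galnt3 between Dmp1KO and WT in fibroblastic cells ran from -0.80 to 0.14, and between Dmp1KO/Fgf23cKO and WT in osteoblast/osteocyte-like cells Furin from -0.31 to 0.14 and Pcsk6 from -0.33 to 0.83. Fits for fibroblastic and osteoblast/osteocyte-like cells at resolution 0.4, and for the latter with at least 20 cells a sum, were not run for want of sums.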
